A study of Mus musculus with 8 samples.

Results

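The genes described here are 10 oncofetal liver markers, Afp, Gpc3, Golm1, Cd24a, Prom1, Bex1, Bex2, Igf2bp1, Igf2bp2 and Igf2bp3. Each was taken by its symbol from the probes that the array annotation gives to 1 gene, and where a gene had several, the brightest one on average was kept. Of the 10, 9 had such a probe among 19938 genes in the table, and Igf2bp2 was not analysed here. Expression was measured in 4 hepatocellular carcinomas and in 4 pieces of adjacent liver from the same male C57BL/6J mice (M24, M48, M50 and M60). All mice had received an AAV (adeno-associated virus) vector when 2 to 3 months old, and livers were taken 18 months after injection, so the adjacent liver had been exposed to the vector as well. The labels used here do not give the vector's cargo or dose, no liver without vector was compared, and each tumor is 1 piece of tissue from 1 mouse. Because both tissues came from each mouse, the tumor was set against the adjacent liver of the same animal.

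Oncofetal genes are active in the fetal liver, are switched off in hepatocytes around birth, and can be active again in liver tumors. Alpha-fetoprotein (Afp) is a relative of albumin that hepatoblasts and the yolk sac secrete into fetal blood, and it has long been measured in serum as a marker of hepatocellular carcinoma. Glypican-3 (Gpc3) is a heparan sulfate proteoglycan held at the cell surface by a lipid anchor, and it is used in pathology to tell hepatocellular carcinoma from benign liver. Zbtb20 and Zhx2 are factors known in mice to repress Afp in liver after birth.

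Of the 9 measured genes, 6 were higher in the tumors and 0 were lower. The surface proteoglycan Gpc3 was 11.2-fold higher, the Golgi protein Golm1 10.2-fold, the surface glycoproteins Prom1 and Cd24a 4.90-fold and 4.84-fold, Afp 4.39-fold and the small X-linked gene Bex1 3.82-fold. Its relative Bex2 and the fetal RNA-binding proteins Igf2bp1 and Igf2bp3 did not pass the test. The tumor of M60 held the highest value of 5 of the 9 genes, a count not made over all genes. Golm1, in contrast, differed by nearly the same amount in every mouse.

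The values are log2 expression values, and all differences are tumor minus adjacent over n = 4 pairs. Rose and fell are used for genes with an adjusted p under 0.05 by limma, with the mouse as a block. A filter removed the dimmest 40% of genes (those with a mean under 4.597), which leaves 11963 for the test. Bex1, Bex2, Igf2bp1 and Igf2bp3 lay below that value, and their tests come from the same fit with no filter over all 19938 genes. In the fit with no filter, 9.7% of all genes were called higher and 8.97% lower (18.7% in either direction), beside 6 and 0 of the 9 members. With the filter, 16.3% of all tested genes were called higher and 15.7% lower (31.9% in either direction). These are the shares to set beside the counts of tested genes in every list below. With the filter but without M60, 1246 genes were called higher and 1070 lower, against 1945 and 1874 with all mice. At least 4-fold higher and called were 5 members, beside 0.662% of all genes with no filter and 1.1% of those with it. In bulk tissue, fewer cells of a type and less RNA per cell cannot be told apart.

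The promoters of 4 members are shown first because Afp and Gpc3 are the best known of these markers and because Bex1 and Bex2 are relatives whose differences were unlike in size. On GRCm38.p6 the genes lie at chr5:90490714-90508907 (Afp), chrX:52272426-52613974 (Gpc3), chr13:59634996-59675784 (Golm1), chr10:43579169-43584265 (Cd24a) and chr5:43993621-44102047 (Prom1). Bex1 (chrX:136213972-136215513) and Bex2 (chrX:136066565-136068236) are near each other, and Igf2bp1 and Igf2bp3 lie at chr11:95957163-96005944 and chr6:49085218-49215469. The sequences are the 250 bases before the annotated start, 5′ to 3′ on the gene's strand, from RefSeq on GRCm38.p6. They lie at chr5:90490464-90490713 for Afp (plus strand), chrX:52613975-52614224 for Gpc3, chrX:136215514-136215763 for Bex1 and chrX:136068237-136068486 for Bex2 (minus strand for all 3). Capitals mark matches to 10 short motifs searched on both strands.
Afp: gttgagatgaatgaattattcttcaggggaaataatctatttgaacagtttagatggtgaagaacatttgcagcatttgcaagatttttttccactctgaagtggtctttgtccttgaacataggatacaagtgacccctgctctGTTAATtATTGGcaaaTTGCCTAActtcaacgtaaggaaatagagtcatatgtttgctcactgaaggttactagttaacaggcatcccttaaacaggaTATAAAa
Gpc3: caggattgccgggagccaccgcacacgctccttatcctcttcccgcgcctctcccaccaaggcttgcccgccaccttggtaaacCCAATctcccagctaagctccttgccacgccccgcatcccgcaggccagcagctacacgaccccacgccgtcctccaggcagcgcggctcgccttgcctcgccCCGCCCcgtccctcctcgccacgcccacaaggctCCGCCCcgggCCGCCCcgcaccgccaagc
Bex1: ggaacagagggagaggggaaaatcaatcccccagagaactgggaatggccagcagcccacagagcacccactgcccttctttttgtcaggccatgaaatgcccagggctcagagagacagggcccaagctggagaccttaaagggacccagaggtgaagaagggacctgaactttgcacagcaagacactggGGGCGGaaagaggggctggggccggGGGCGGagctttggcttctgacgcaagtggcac
Bex2: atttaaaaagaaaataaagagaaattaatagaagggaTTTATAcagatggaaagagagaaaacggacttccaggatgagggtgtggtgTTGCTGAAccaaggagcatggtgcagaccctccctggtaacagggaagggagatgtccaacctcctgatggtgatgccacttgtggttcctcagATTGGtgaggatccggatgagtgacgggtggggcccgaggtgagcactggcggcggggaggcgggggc

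The Afp window held the HNF1 half-site GTTAAT at 105 bases before the start, a CCAAT box at 98, a C/EBP motif (TTGCNNAA) at 89 and TATAAA at 7, each distance counted to the match's first base on the gene's strand. It had 1 CpG and 36.0% G and C, and 81.2% of 32851 windows of the same length had more CpGs. The Gpc3 window held 3 GC boxes (GGGCGG) and 1 CCAAT box, with 25 CpGs and 71.6% G and C. Bex1 had 2 GC boxes and 4 CpGs. In Bex2 the letters TATAAA lay on the opposite strand, 213 bases before the start. The Bex2 window also held a CCAAT box and a C/EBP motif but no GC box, with 7 CpGs. Among all windows, GTTAAT was present in 6.43%, TATAAA in 12.4%, CCAAT in 33.8%, GGGCGG in 32.7% and TTGCNNAA in 9.56%. The AP-1 motif TGANTCA, the FOXA motif TGTTTAC, the HNF4 motif CAAAGTCC, the LRH-1 motif CAAGGTC and the TCF motif CTTTGAT, found in 6.75%, 3.17%, 1.2%, 3.32% and 3.21% of windows, had no match in these 4. Such matches describe letters and say nothing of binding. In all, 8 of the 10 members had a window, and Prom1, with 2 annotated starts, had an AP-1 motif in each.

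Afp had log2 values of 5.77, 5.80, 6.24 and 8.01 in the tumors of M24, M48, M50 and M60, against 4.59, 4.13, 4.18 and 4.39 in adjacent liver of the same mice. Every tumor lay above every adjacent sample, and the tumor of M60 stood well above the other 3. The mean was 6.46 ± 1.06 in tumors and 4.32 ± 0.21 in adjacent liver (SD, n = 4 each). Afp rose by 2.13 (SE 0.365, adjusted p = 0.00634, limma). The within-mouse difference was 1.18 for M24, 1.66 for M48, 2.07 for M50 and 3.62 for M60. The adjacent mean lay below the filter value of 4.597, and Afp passed the filter only through its tumor values.

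Gpc3 had 8.64, 6.84, 8.59 and 10.55 in the tumors of M24, M48, M50 and M60, against 4.72, 5.72, 5.14 and 5.13 in adjacent liver. The groups did not overlap, but the tumor of M48 was the lowest tumor and its adjacent liver the highest adjacent sample. Gpc3 rose by 3.48 (SE 0.604, adjusted p = 0.00664, limma). Within mice, the tumor was 15.2-fold higher for M24, 2.18-fold for M48, 10.98-fold for M50 and 42.9-fold for M60. The 4 differences had an SD of 1.78, and 99.9% of the 11963 tested genes had a smaller one. Without M60 the difference was 2.84, and without M48 it was 4.27.

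Golm1 encodes a membrane protein of the Golgi that is also released into serum and has been studied as a liver cancer marker. It stood at 8.67, 9.04, 9.09 and 8.71 in the tumors of M24, M48, M50 and M60, against 5.14, 5.55, 5.85 and 5.55 in adjacent liver. All tumors lay far above all adjacent samples, and neither group was widely spread. Golm1 rose by 3.36 (SE 0.101, adjusted p = 2.06e-05, limma), with differences from 3.17 in M60 to 3.54 in M24. Their SD of 0.184 was below the median of 0.207 over the tested genes, in contrast to an SD of 1.78 for Gpc3, 1.06 for Afp and 0.858 for Cd24a.

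**Figure D1:**
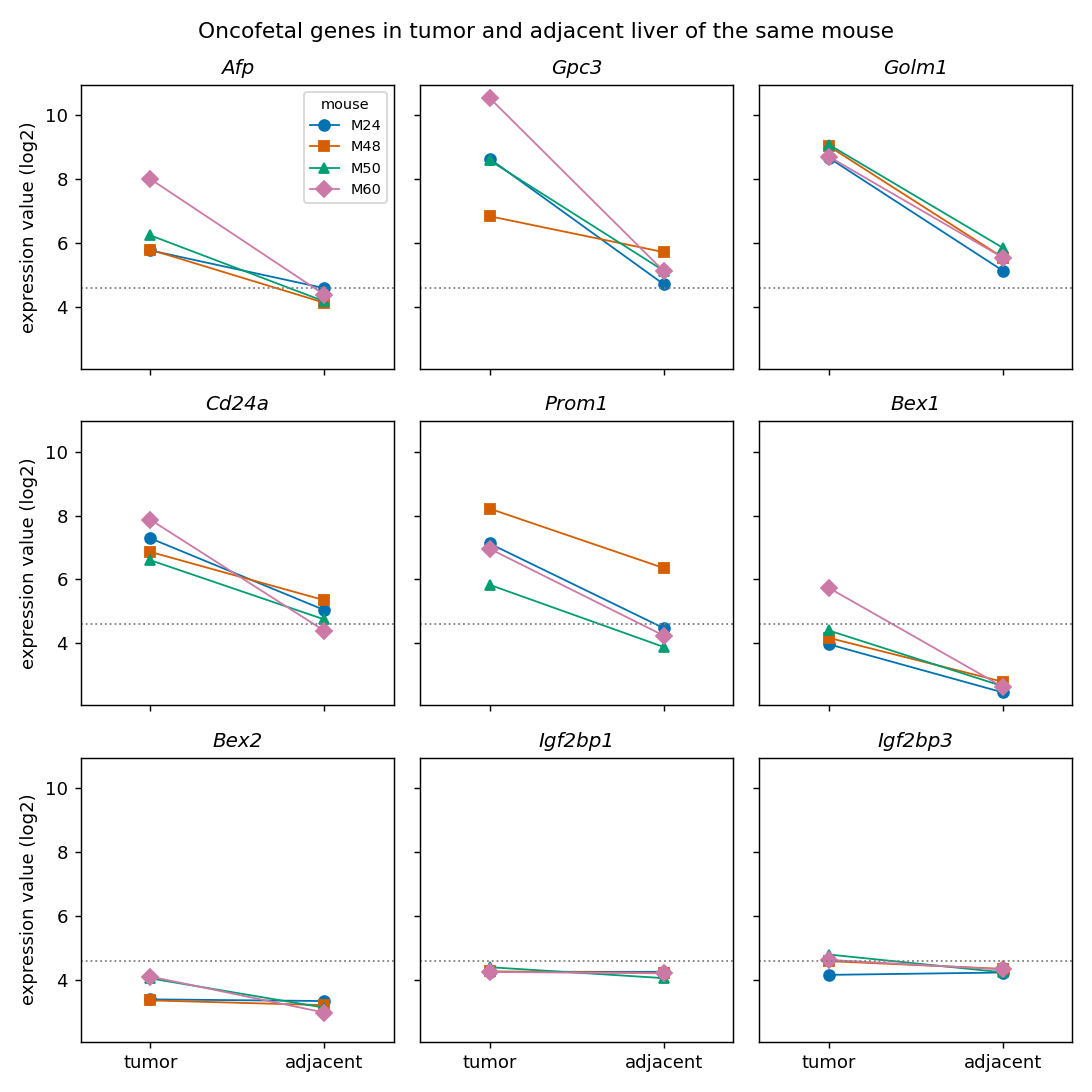
Log2 expression values of the 9 measured oncofetal genes in the tumor (left) and adjacent liver (right) of each mouse, joined by a line per mouse, with the filter value of 4.597 as a dotted line. Golm1 lines run nearly parallel, the M60 tumor stands highest for Afp, Gpc3, Cd24a, Bex1 and Bex2, and the M48 samples are the highest of their group for Prom1.

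The surface markers Cd24a and Prom1 are used to sort progenitor and tumor-initiating cells in liver. Cd24a, a small lipid-anchored sialoglycoprotein, had 7.29, 6.86, 6.60 and 7.87 in the tumors of M24, M48, M50 and M60, against 5.04, 5.35, 4.75 and 4.39 in adjacent liver. The groups did not overlap, and M60 had both the highest tumor and the lowest adjacent value. Cd24a rose by 2.27 (SE 0.301, adjusted p = 0.00264, limma), with differences from 1.51 in M48 to 3.48 in M60.

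Prom1, the pentaspan membrane protein also called CD133, had 7.13, 8.22, 5.83 and 6.96 in the tumors of M24, M48, M50 and M60, against 4.48, 6.36, 3.89 and 4.24 in adjacent liver. Here the groups overlapped, because the adjacent liver of M48 lay above the tumor of M50. Within mice the differences were close, from 1.86 in M48 to 2.72 in M60, and Prom1 rose by 2.29 (SE 0.174, adjusted p = 0.000444, limma). Without the mouse as a block the adjusted p was 0.0206. The bile duct marker list had a mean of 5.57 in the adjacent liver of M48, against 5.53 to 5.64 in the other 3 adjacent samples. Its members were mixed there: Epcam (4.70), Cftr (3.27) and Slc4a2 (7.37) were the highest of the 4 adjacent samples. Aqp1 (8.05) and Sctr (4.17) were the lowest, and Krt19 stood at 5.16, against 5.14 to 5.33. The part of bile duct cells in the Prom1 values was not tested.

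Bex1 and Bex2 are small X-linked genes of a family known from the brain. Bex1 had 3.97, 4.17, 4.40 and 5.74 in the tumors of M24, M48, M50 and M60, against 2.46, 2.80, 2.66 and 2.64 in adjacent liver. All tumors lay above all adjacent samples, and M60 was again the highest. The difference was 1.93 (SE 0.265, adjusted p = 0.00331, limma with no filter), and both means lay below the filter value. A second probe, annotated to both Bex1 and Bex4, had a mean of 3.14 in tumors and 2.98 in adjacent liver. Its difference of 0.16 was unlike that of the first probe, and which of the 2 genes it reports was not tested. The probe of Bex4 alone had 2.93 in tumors and 2.80 in adjacent liver, a difference of 0.12.

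Bex2 had 3.38, 3.35, 4.04 and 4.10 in the tumors of M24, M48, M50 and M60, against 3.33, 3.20, 3.12 and 2.97 in adjacent liver. Values of M50 and M60 tumors were higher than the rest, while those of M24 and M48 lay within 0.15 of their adjacent liver. The difference of 0.56 (SE 0.185, adjusted p = 0.083, limma with no filter) did not pass the test.

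The Igf2bp genes encode fetal RNA-binding proteins that bind Igf2 and other transcripts. Igf2bp1 had 4.25, 4.26, 4.39 and 4.24 in the tumors of M24, M48, M50 and M60, against 4.25, 4.21, 4.05 and 4.20 in adjacent liver, and the groups overlapped. The difference was 0.11 (SE 0.0915, adjusted p = 0.507, limma with no filter), and the gene's other probe gave 0.05. Igf2bp3 had 4.15, 4.58, 4.79 and 4.62 in tumors, against 4.22, 4.34, 4.23 and 4.32 in adjacent liver. It was lower in the tumor of M24 and higher in the other 3, with a difference of 0.26 (SE 0.115, adjusted p = 0.19, limma with no filter). Both genes had means below the filter value, and above the lower quartile of each array, which was 3.46 to 3.51.

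**Figure D2:**
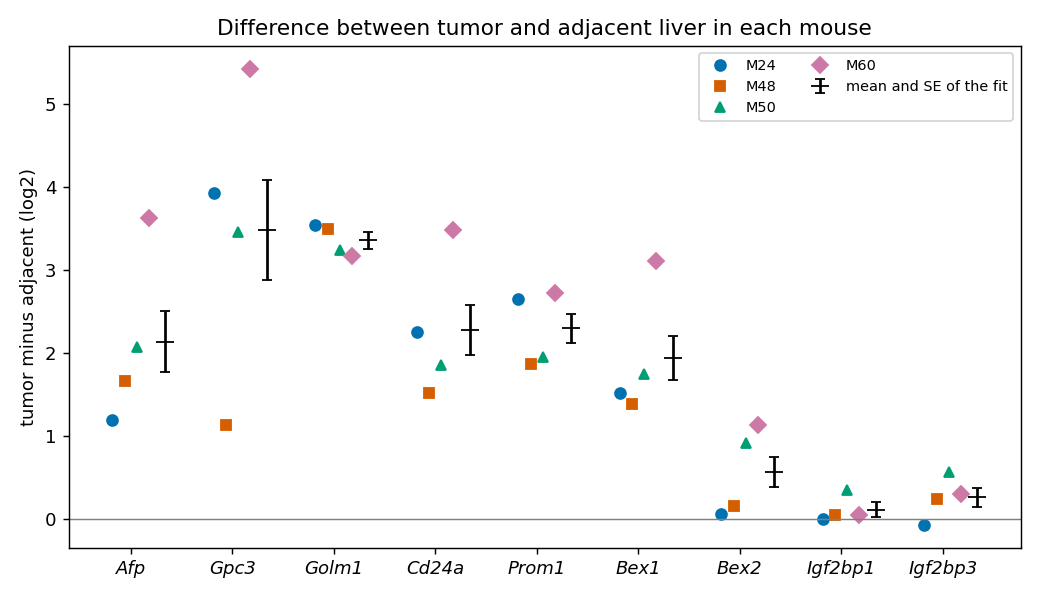
Tumor minus adjacent difference (log2) of each oncofetal gene in each mouse (coloured points) with the mean and SE of the fit (black). The points of Golm1 lie from 3.17 to 3.54, and those of Gpc3 spread from 1.12 to 5.42.

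Across the 9 genes, every tumor sample lay above every adjacent sample for 6 (Afp, Gpc3, Golm1, Cd24a, Bex1 and Bex2), beside 10.2% of all 19938 genes. The difference was positive in 4 of 4 mice for 8 of the 9, beside 18.1% of all genes. Both counts hold Bex2, which was not called, with its lowest tumor at 3.35 and its highest adjacent sample at 3.33. The 8 also hold Igf2bp1, not called, with a difference of 3e-05 in M24. The largest difference was that of M60 for 6 of the 9, and the smallest that of M48 for 4 of the 9. How often M60 or M48 held these places over all genes was not counted. Markers of other cells differed between the mice too. In the tumor of M60 a list of 9 lymphocyte markers had a mean of 5.67, against 4.52 to 4.65 in the other tumors and 4.15 to 4.68 in adjacent liver. Its T cell genes Cd8a and Cd3g stood at 7.57 and 7.49 there, against 5.06 to 5.56 and 4.73 to 5.66 in the other tumors. Of those 9 markers, 4 had a mean below the filter value and 0 of the 5 tested rose or fell.

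Bile duct markers had list means of 5.80 to 6.40 in tumors and 5.53 to 5.64 in adjacent liver, the highest in the tumors of M60 and M24, and 3 of the 6 tested rose. Cftr and Sctr, which mark bile duct cells, had means below the filter value. Macrophage markers were high in both samples of M48, with list means of 8.95 in its tumor and 9.11 in its adjacent liver. The other tumors had 7.42 to 7.65 and the other adjacent samples 7.07 to 8.18. Of the 10 tested macrophage markers 2 rose and 3 fell. Endothelial markers had list means of 7.46 to 7.97 in tumors and 6.85 to 7.12 in adjacent liver, and 6 of 10 rose. For stellate cell and fibroblast markers the list means were 8.05 to 8.38 in tumors and 6.85 to 7.83 in adjacent liver, with 5 of 10 higher. Hepatocyte markers had list means of 12.96 to 13.16 in tumors and 13.24 to 13.33 in adjacent liver. Of the 8 tested, Apoa1 rose (0.32), Cps1 (-0.84) and Pck1 (-1.42) fell and 5 were not called, with a median of -0.0056. Erythroid markers ranged from 5.04 to 5.52 in tumors and from 5.16 to 5.51 in adjacent liver, and neutrophil markers from 3.79 to 4.24 and from 3.71 to 4.495. Proliferation genes had list means of 4.83 to 6.25 in tumors and 4.25 to 4.45 in adjacent liver, with 5 of 6 tested genes higher. Of these 5, Mki67, Top2a and Plk1 had adjacent means below the filter value (4.13, 4.20 and 4.18). They passed the filter only through their tumor values. Birc5, Bub1 and Kif11, below the filter, were called higher with no filter (adjusted p = 0.00979, 0.00738 and 0.0121, limma). The part of these cells in the member values was not tested.

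Genes that regulate Afp or lie beside it were mostly lower or did not pass. Of 13 tested factors and neighbours 6 fell and 1 rose, with a median of -0.34, beside a median of 0.0008 over all tested genes. Zbtb20, which represses Afp in the liver after birth in mice, had 9.17, 9.02, 8.71 and 8.85 in the tumors of M24, M48, M50 and M60, against 9.83, 9.66, 9.83 and 9.64 in adjacent liver. All tumors lay below all adjacent samples, and Zbtb20 fell by 0.80 (SE 0.104, adjusted p = 0.00245, limma). Its smallest difference was -0.64 in M48 and its largest -1.12 in M50, with -0.66 in M24 and -0.79 in M60. The part of Zbtb20 in the Afp values was not tested.

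Zhx2, another postnatal repressor of Afp and of Gpc3 in mice, had 7.03, 7.38, 7.29 and 7.17 in tumors, against 7.77, 7.47, 7.53 and 7.47 in adjacent liver. It was lower in 4 of 4 mice, but the difference of -0.34 (SE 0.123, adjusted p = 0.0764, limma) did not pass. With no replicate block its adjusted p was 0.0398. Zfhx3, known in human cells to repress AFP, fell by 0.50 (adjusted p = 0.0426, limma), a call that was lost without M48 (0.115), M50 (0.0789) or M60 (0.151) and with no filter (0.0548).

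Among the other listed factors, Foxa3, a forkhead factor of hepatocytes, rose by 0.90 (SE 0.109, adjusted p = 0.002, limma). Cebpa, which maintains hepatocyte differentiation, fell by 0.57 (SE 0.0758, adjusted p = 0.00271, limma). Prox1 fell by 0.41 (adjusted p = 0.0209), though not without M24 (0.0829) or M60 (0.097). Hnf4a, a central hepatocyte nuclear receptor, fell by 0.35 (adjusted p = 0.0253), a call that was lost without any 1 of the 4 mice (0.0531 to 0.0774) and under quantile normalization (0.263). Albumin (Alb), the neighbour of Afp on chromosome 5, averaged 13.91 ± 0.06 in tumors and 13.80 ± 0.12 in adjacent liver (SD, n = 4 each) and did not pass (adjusted p = 0.443, limma), at values near the top of the measured range.

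**Figure D3:**
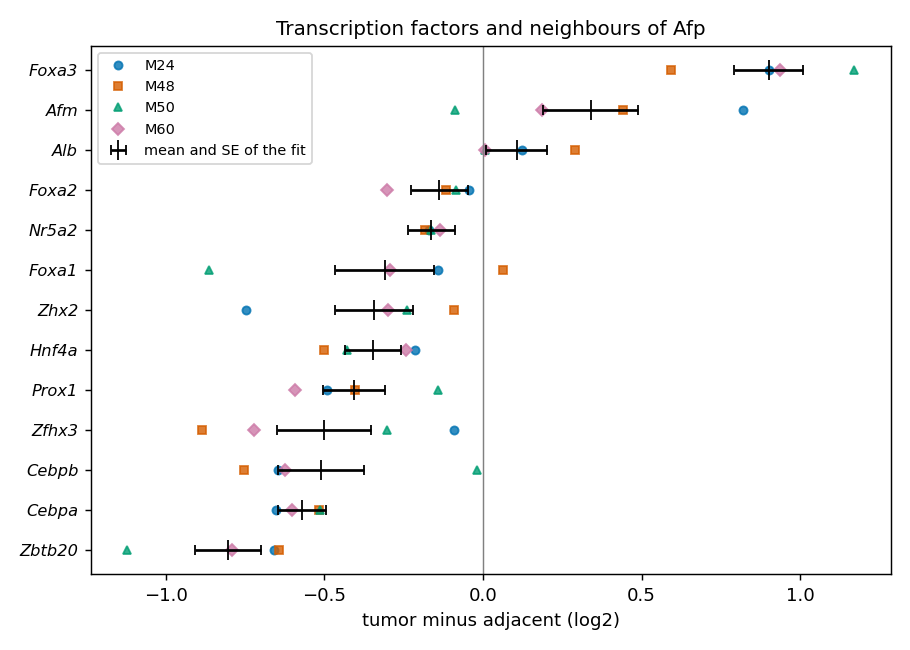
Tumor minus adjacent difference (log2) of 13 genes that regulate or neighbour Afp, per mouse (coloured) and as the mean and SE of the fit (black). Foxa3 lies to the right of 0 and Zbtb20 and Cebpa to the left in all 4 mice.

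Other glypicans shared the rise in part. Gpc6 had 7.22, 6.56, 6.77 and 7.14 in the tumors of M24, M48, M50 and M60, against 5.94, 6.06, 5.85 and 5.37 in adjacent liver. It rose by 1.12 (SE 0.2, adjusted p = 0.00746, limma), and its order of mice, smallest in M48 and largest in M60, was that of Gpc3. Gpc1 rose by 0.80 (SE 0.117, adjusted p = 0.00368), and by the fit with no replicate block its adjusted p was 0.0575. Gpc4 did not pass (0.22, adjusted p = 0.172, limma), and Gpc2 and Gpc5 had means below the filter value.

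Of the 15 tested glypicans and heparan sulfate partners, 4 rose and 1 fell, with a median of 0.05. Over all tested genes 16.3% were called higher and 15.7% lower. Of the 4 below the filter, Hhip, a decoy receptor for hedgehog ligands, was called lower in the fit with no filter (-0.79, adjusted p = 0.00149, limma), with every tumor below every adjacent sample. Ext1, which builds heparan sulfate chains, rose by 0.64 (adjusted p = 0.0171, limma), a call lost without M50 (0.0615) or M60 (0.0642). Cd81, a tetraspanin known to bind Gpc3, rose by 0.44 (adjusted p = 0.0145), though not without M24 (0.0577) or M60 (0.0794). Notum, a secreted enzyme that releases glypicans and inactivates Wnt proteins, had 5.39, 5.34, 4.61 and 5.84 in tumors, against 7.01, 6.35, 7.21 and 6.85 in adjacent liver. All tumors lay below all adjacent samples, and Notum fell by 1.56 (SE 0.265, adjusted p = 0.00622, limma).

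The Bex and Tceal genes form related families, and Bex1 and Bex2 lie near each other on the X chromosome. Of 8 measured relatives of Bex1 and Bex2, only 3 passed the filter, and these 3 rose. Tceal8 had 8.52, 7.92, 8.22 and 8.25 in the tumors of M24, M48, M50 and M60, against 6.50, 6.99, 6.90 and 6.39 in adjacent liver. The groups did not overlap, and Tceal8 rose by 1.54 (SE 0.185, adjusted p = 0.00195, limma). Tceal9 rose by 1.03 (adjusted p = 0.0139), a call that was lost without M24 (0.0621), M50 (0.0509) or M60 (0.0525). Bex3 rose by 0.44 (adjusted p = 0.0403), and its call was lost without M24, M50 or M60 (0.0626 to 0.14), with no filter (0.0514), under quantile normalization (0.0766) and under median centring (0.0602). The other 5, Bex4, Bex6, Tceal1, Tceal5 and Tceal6, differed by -0.10 to 0.23 and had a mean over the 8 samples below the filter value.

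**Figure D4:**
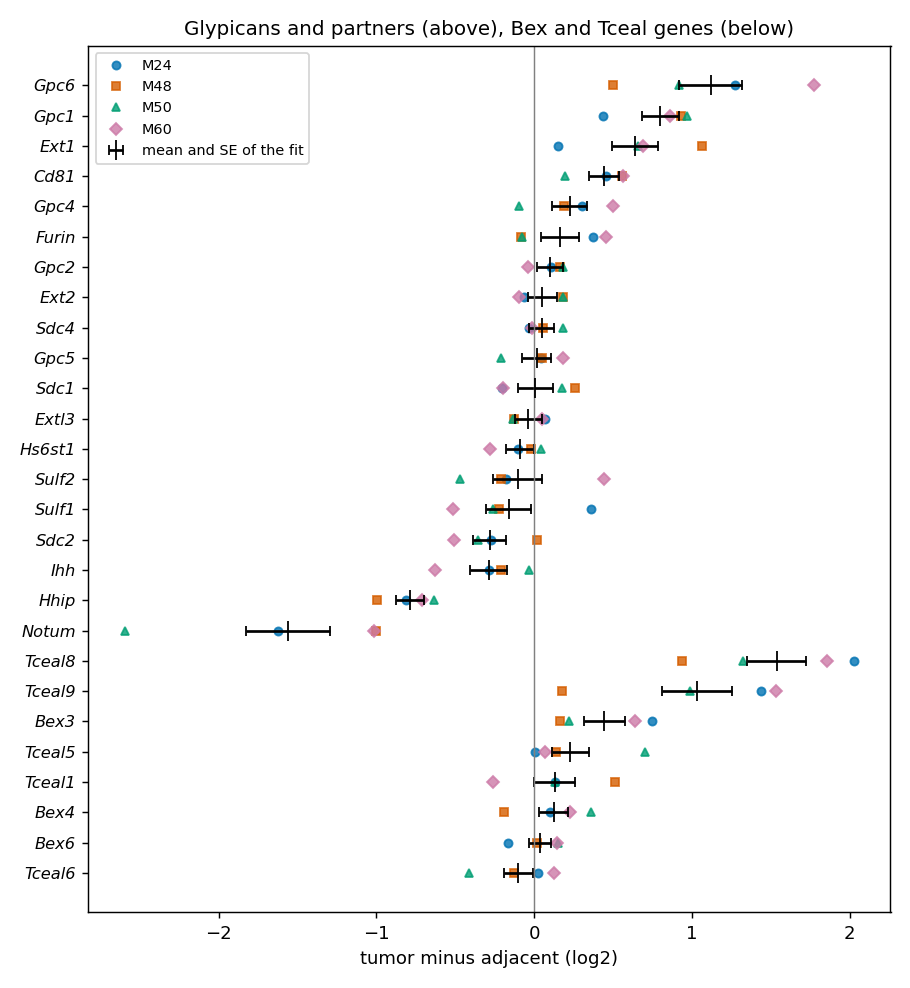
Tumor minus adjacent difference (log2) of 19 glypicans and partners and of 8 Bex and Tceal genes, per mouse (coloured) and as the mean and SE of the fit (black). Gpc6, Gpc1, Tceal8 and Tceal9 lie to the right of 0 in every mouse and Notum to the left.

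The tested genes of the fetal RNA-binding and let-7 list around the Igf2bp genes gave no calls. Of 8 tested partners and let-7 pathway genes 0 rose and 0 fell by limma with the filter, and the 5 with the smallest p, Tut7, Hnrnpu, Syncrip, Dhx9 and Dis3l2, had differences from -0.18 to 0.18. Hnrnpu passed only after quantile normalization (0.37, adjusted p = 0.0139, limma). Lin28a, Lin28b, Hmga2 and Igf2 had means below the filter value, so they are not among the tested genes. In the fit with no filter, Lin28a (0.09) and Lin28b (-0.05) did not pass. Hmga2 was higher in 4 of 4 mice but did not pass either (0.24, adjusted p = 0.0798, limma with no filter). Igf2, the growth factor whose transcript these proteins bind, had 4.54, 4.81, 5.19 and 4.35 in the tumors of M24, M48, M50 and M60, against 4.61, 4.52, 4.31 and 4.30 in adjacent liver, and the groups overlapped (difference 0.28, adjusted p = 0.291, limma with no filter).

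Surface and progenitor markers beside Cd24a and Prom1 were higher in part. Of 12 tested genes 6 rose and 1 fell, with a median of 0.68, beside 16.3% higher and 15.7% lower over all tested genes. The integrin Itga6 rose by 3.00 (SE 0.178, adjusted p = 0.000232, limma), the transcription factor Sox9 by 1.36 (SE 0.136), the hyaluronan receptor Cd44 by 1.02 (SE 0.133) and Cd34, also carried by vessels, by 1.57 (SE 0.324). The call for Cd34 was lost without M50 (adjusted p = 0.0506). Lgr5, a Wnt-responsive receptor, fell by 1.88 (SE 0.128, adjusted p = 0.000338). In the Golgi list, 2 of 15 tested genes rose and 2 fell. The sialyltransferase St6gal1 rose by 1.19 (SE 0.0799) and Mgat5, which branches N-glycans, by 1.35 (SE 0.163), while the mannosidases Man1a (-0.66) and Man2a1 (-0.41) fell. Man2a1 was not called without M24, M48 or M50 (adjusted p 0.0577 to 0.0716), with no replicate block (0.0563) or under quantile normalization (0.0893). Golm2, the relative of Golm1, stood at 0.61 and just missed the threshold (adjusted p = 0.0508), and it passed without M50 (0.00618), with array weights (0.0333) and with the stricter filter (0.0435).

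Genes with the most similar pattern were sought by the root mean square distance between their 4 within-mouse differences and those of a member, over 11962 other tested genes. For Afp these were Ltb, Pold4 and Inhbb (distances 0.327, 0.441 and 0.524), and for Gpc3 they were Igfbp1, Pnpla5 and Cyp17a1 (0.791, 0.871 and 0.931). Golm1 was closest to Cd63, Anxa2 and Mfge8 (0.198, 0.328 and 0.494). For Cd24a the nearest were Clmp, S1pr3 and Lss (0.287, 0.306 and 0.385), and for Prom1 Kif5c, Miox and Slc9a7 (0.214, 0.217 and 0.284). Inhbb (4.53), Pnpla5 (3.81), S1pr3 (4.56), Kif5c (3.92), Miox (3.71) and Slc9a7 (4.52) had adjacent means below the filter value. They were among the genes compared only through their tumor values. Genes left out by the filter, Bex1 among them, were not compared. Ltb, which encodes a lymphotoxin, differed by 1.37 for M24, 1.88 for M48, 1.72 for M50 and 3.15 for M60, close to Afp in the same mice. No tested gene lay as near to Gpc3 as the named genes did to the other 4 members. Its nearest, Igfbp1, differed by 1.21 in M48 and by 3.62 to 4.91 in the other mice.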

How the data were processed

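The deposited table holds log2 values for 28874 probes in 8 samples, with 0 missing. That the scale is log2 was inferred from its range, 1.918 to 14.495. Column medians of 4.888 to 5.006 show that the columns had been brought to nearly the same scale. MAS5 is named, without a version, in the submitters' processing notes. How background and normalization were handled is not given in the sources used here. Detection calls and scan dates were not at hand, so batches were not tested, and the number of arrays limits the precision.

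Of the probes, 21789 had 1 gene symbol, 1621 had several and 5464 had none in the annotation. The brightest single-symbol probe stood for each of 19938 genes. Tumor and adjacent liver were compared with limma 3.58.1 in R 4.3.3 (lmFit, eBayes with a trend, mouse as a block, 3 residual degrees of freedom), two-sided, with Benjamini-Hochberg adjustment across every tested gene. The mouse was a block because the labels and the design text take both tissues from each mouse. Deviations from the group means correlated at 0.313, 0.421, 0.0986 and 0.111 between the tissues of M24, M48, M50 and M60, against -0.378 to 0.189 between different mice. The fit was tested on simulated data. Figures were drawn with matplotlib 3.10.9.

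Members and lists were chosen with earlier results of these data known. Named genes are all members, up to 5 genes with the smallest p of each list, Zbtb20, Zhx2, Zfhx3, Alb and Igf2, the 3 most similar genes of 5 members, and cell type markers. Gpc4, Gpc2, Gpc5, Hhip, the low Bex and Tceal genes, Cftr, Sctr, Cd8a, Cd3g, Epcam and Krt19 were named after their values were seen. So were Apoa1, Cps1, Pck1, Aqp1, Slc4a2, Mki67, Plk1, Lin28a, Lin28b and Hmga2. Alternatives were no block, no filter, a filter on the lowest 60%, the mean of all probes, quantile normalization, median centring, no variance trend, array weights and leaving out each mouse.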

Additional observations from a re-analysis of the deposited data

Results flagged for a closer look

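In 27 groups of 4 values (tumor, adjacent and difference for each of the 9 measured genes), 2 values stood far from the other 3 by Dixon's test, and chance flags about 1 in 20 such groups. Both belong to Igf2bp1 in M50. Its tumor value was 4.39 in M50, against 4.24 to 4.26 in the other 3 tumors. Its tumor minus adjacent difference was 0.34 in M50, against 0.00 to 0.05 in the other 3 mice, and the adjacent value of M50 (4.05) was also below that of the other 3 mice (4.20 to 4.25).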

How the results depend on the processing

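All 9 measured members kept their direction and their side of the threshold under each of the 10 to 12 alternatives run for them. The block, variance trend and filter settings leave a difference unchanged, so only the call could move there. The mean of all probes could change only Igf2bp1, and it left out the Bex1 probe shared with Bex4. Over all alternatives, the difference ranged from 1.64 to 2.45 for Afp, 2.84 to 4.27 for Gpc3 and 3.30 to 3.42 for Golm1. It ranged from 1.87 to 2.53 for Cd24a, 2.15 to 2.44 for Prom1 and 1.54 to 2.12 for Bex1. Among the members called higher, the highest adjusted p over the alternatives was 0.0353, for Gpc3 (limma). Without the replicate block, 1743 genes were called higher and 1799 lower, and 0 of the 9 members changed their call. Leaving out 1 mouse gave 1246 to 1754 genes higher and 1070 to 1722 lower, the lowest without M60. The let-7 axis gene Dis3l2, not called, ranged from -0.11 without M48 to 0.0665 without M24, against -0.04 with all mice. The median over the 11963 tested genes moved to -0.04 under quantile normalization and -0.03 under median centring. In the fit with no filter, median centring moved the dim members further. It took Bex1 from 1.93 to 1.83, Bex2 from 0.56 to 0.46, Igf2bp1 from 0.11 to 0.01 and Igf2bp3 from 0.26 to 0.16. Bex1, Bex2, Igf2bp1 and Igf2bp3 lie in the lowest 40% of genes, and without detection calls their signal over background is not known here, and the stricter filter also left out Afp, Cd24a and Prom1.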

Other observations

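Other genes known as markers of liver tumors were measured beside the oncofetal members. Of 21 listed, 13 were tested, and 7 rose and 0 fell, beside 16.3% and 15.7% of all tested genes. This list too was chosen with earlier results of these data known. Tff3, a trefoil factor of mucous epithelia, had 10.86, 10.08, 11.27 and 10.25 in the tumors of M24, M48, M50 and M60, against 5.42, 5.47, 5.30 and 5.17 in adjacent liver (difference 5.28, SE 0.207, adjusted p = 6.83e-05, limma). Spink1, a secreted trypsin inhibitor, had 7.48, 7.17, 8.66 and 5.75 in tumors, against 3.18, 3.47, 3.23 and 3.13 in adjacent liver (difference 4.01, SE 0.404, adjusted p = 0.00108, limma, with the adjacent mean below the filter value). Its order of mice was unlike that of Afp and Gpc3, with the lowest tumor value in M60. The axon guidance receptor Robo1 rose by 1.38, the protease inhibitor Slpi by 1.49 and the topoisomerase Top2a of dividing cells by 1.78, with the adjacent mean of Top2a below the filter value. Of the 5 listed genes below the filter, Cldn6 and Birc5, named after their values were seen, were called higher in the fit with no filter (adjusted p = 0.0445 and 0.00979, limma). Mdk, Plvap, Sall4, Hspa1a, Ezh2 and Tert, named after their values were seen, did not pass, with differences from -0.06 to 0.21.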
